A study of Mus musculus with 24 samples.

Results

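The genes described here are those for the proteins of the cytosolic ribosome, the machine that translates nuclear-encoded messenger RNA. They were chosen by name: genes with an Rpl or Rps symbol followed by a number, the stalk genes Rplp0 to Rplp2 and Rpsa, without the S6 kinases and pseudogenes. A probe set, the unit of measurement on these arrays, was used where the platform annotation gave it to 1 gene alone. The naming rule itself used no measured value, but it was set with earlier results of these data known. It gave 48 genes of the 18194 measured, 26 of the large and 22 of the small subunit, read by 104 probe sets of 45101. Of the coding genes that fit the naming, 36 had no probe set of their own, among them Rpl3, Rpl5, Rpl10 and Rplp1, so the 48 are a part of the ribosome. A further 110 probe sets named a ribosomal protein gene together with other genes and were kept out.

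A ribosome is built in the nucleolus from ribosomal RNA and about equal amounts of each ribosomal protein, with the help of assembly factors that leave the finished particle. The messenger RNAs for ribosomal proteins are abundant, and many begin with a run of pyrimidines, the TOP element, through which the kinase mTOR sets how often they are translated. In neurons, BDNF is known to raise protein synthesis through its receptor TrkB and mTOR, so the supply of these messengers belongs to the biology of the growth factor. BET proteins are readers of acetylated histones that help RNA polymerase II to start and elongate transcripts, and IBET858 is an inhibitor that keeps them off chromatin.

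Cortical neurons taken from mouse embryos at E18 were kept for 1 week and then given DMSO, IBET858 at 1 µM, BDNF at 50 ng/ml, or BDNF with IBET858, for 2 h or 12 h. DMSO, the solvent, was the control at each time. No genotype, transgene or strain is named in the labels, so all 8 groups shared the same kind of culture. Each group held 3 arrays with RNA from such cultures, and nothing in the labels tells whether the 3 were grown apart. The p-values therefore rest on the spread among these arrays, which may be technical.

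The values are log2 intensities from which each probe set's median over the 24 arrays was taken away. They show how a gene differed between arrays and not how much of it there was, and levels of different genes cannot be compared. For the same reason the markers of neurons and other cells could not be used to say which cell types were present. Because the arrays were brought to 1 distribution, a change in total messenger RNA per cell cannot be seen, and in bulk RNA fewer cells of a type and less RNA per cell cannot be told apart. Arrays differed from their group mean by a standard deviation over all genes of 0.072 to 0.117, except replicate 1 of DMSO at 2 h at 0.178 and replicate 3 of IBET858 at 12 h at 0.157. A gene is called higher or lower where limma's adjusted p, taken over all 18194 genes of a comparison, was under 0.05. Shares of all genes come from the fit to the values as deposited. Counts under other settings stand without such a share, and most medians without that of all genes. A smaller count there may follow fewer calls over all genes. After the ± sign stands the standard error of the model for a change, with n = 3 arrays per group.

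The promoter stretches of 6 genes are shown because these genes carry the main differences below and differ in the letters at their annotated starts. Each runs from 60 bases before to 20 bases after the start that RefSeq annotates on GRCm38.p6, written 5′ to 3′ on the strand of the gene. Capitals mark the letters CCGGAAG or their complement, the core of a binding site for ETS factors such as GABP, and a transcript start with C followed by at least 4 pyrimidines. Rpl12 lies at chr2:32961652-32961731 on the plus strand, Rpl7l1 at chr17:46782637-46782716 on the minus strand, Rpl41 at chr10:128549149-128549228 on the minus strand, Rps10 at chr17:27635225-27635304 on the minus strand, Rpl14 at chr9:120571457-120571536 on the plus strand and Rps25 at chr9:44407654-44407733 on the plus strand.
Rpl12: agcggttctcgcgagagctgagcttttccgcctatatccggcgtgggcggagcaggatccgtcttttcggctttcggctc
Rpl7l1: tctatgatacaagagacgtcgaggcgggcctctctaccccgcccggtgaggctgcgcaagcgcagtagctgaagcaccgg
Rpl41: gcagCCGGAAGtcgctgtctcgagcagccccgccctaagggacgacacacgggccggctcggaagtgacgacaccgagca
Rps10: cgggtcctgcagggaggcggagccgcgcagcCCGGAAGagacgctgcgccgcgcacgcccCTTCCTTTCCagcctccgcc
Rpl14: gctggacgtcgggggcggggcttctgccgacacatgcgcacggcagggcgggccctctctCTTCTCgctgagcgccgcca
Rps25: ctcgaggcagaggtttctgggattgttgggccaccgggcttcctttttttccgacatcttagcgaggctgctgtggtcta

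The RefSeq table held promoter windows for 43 of the 48 genes, each from 250 bases before to 50 after a start, and 7 genes had several starts. The letters CCGGAAG, on either strand, stood in the window of 21 of the 43 (48.8%), against 9.93% of the 27025 genes with a window. A pyrimidine start as defined above was present in 8 genes (18.6%), against 3.01% of all. The letters ATGGCGG, part of a site for YY1, were in 7 (16.3%, against 4.69%), and TATAAA, the TATA box, in 6 (14.0%, against 15.7%), each on either strand. A start with CTTCC could also be part of CTTCCGG, the complement of CCGGAAG, and a window can hold several of these strings. Among the 6 stretches, Rps10 shows both marks, Rpl41 only the CCGGAAG letters, Rpl14 only the pyrimidine start, and Rpl12, Rpl7l1 and Rps25 neither. Rps25 holds the CCGGAAG letters elsewhere in its window. The pyrimidine start was sought only at the annotated base, so a start some bases away would be missed. The stretch of Rpl12 holds a pyrimidine run just after that base and that of Rps25 one before it. Both genes may still have a TOP start. All these marks are matches of letters, and no binding was measured.

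The median over the 48 genes moved little between groups. Its mean over 3 arrays was -0.018 ± 0.006 (SD, n = 3) in DMSO at 2 h, 0.018 ± 0.017 in IBET858, -0.031 ± 0.007 in BDNF and -0.013 ± 0.012 in BDNF with IBET858 at that time. At 12 h it was -0.033 ± 0.024 in DMSO, 0.091 ± 0.026 in IBET858, 0.018 ± 0.009 in BDNF and 0.014 ± 0.008 in BDNF with IBET858. The array medians at 12 h were -0.052, -0.006 and -0.042 in DMSO and 0.065, 0.117 and 0.092 in IBET858, so these groups did not overlap. BDNF at 12 h, at 0.018, 0.028 and 0.009, also lay above the 3 DMSO arrays.

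**Figure D1:**
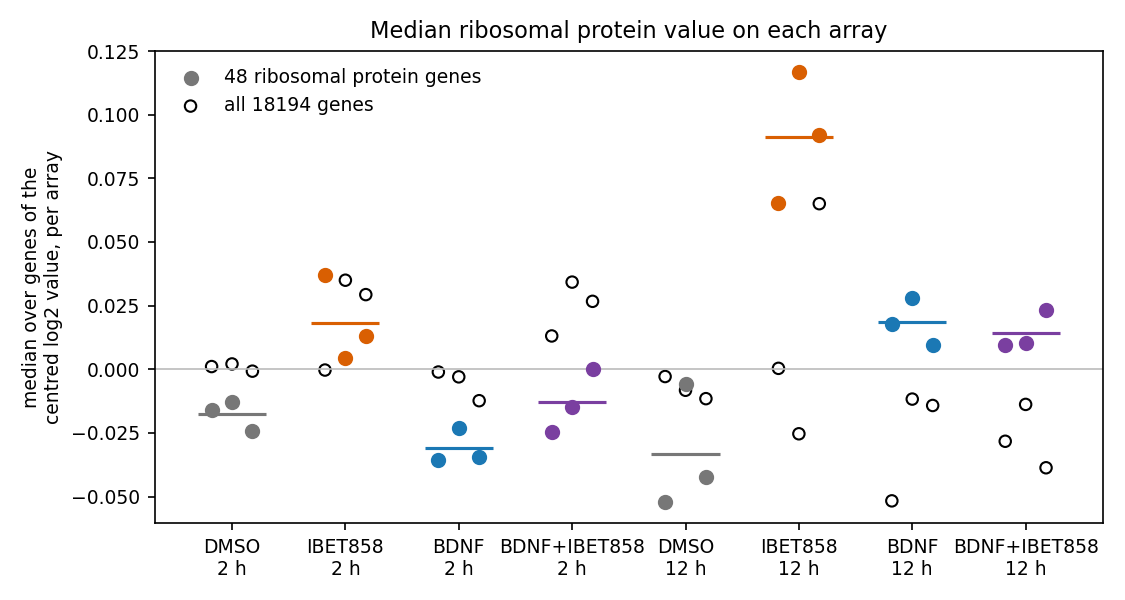
Median centred log2 value of the 48 ribosomal protein genes (filled) and of all 18194 genes (open) on each of the 24 arrays, by group, with the mean of the 3 arrays as a line. The 3 arrays of IBET858 at 12 h, between 0.065 and 0.117, lie above all others for the ribosomal protein genes, while their medians over all genes run from -0.025 to 0.065.

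Over all genes the array median ran from -0.052 to 0.065, and in IBET858 at 12 h it was 0.000, -0.025 and 0.065. Ribosomal protein genes minus all genes gave 0.065, 0.142 and 0.027 on these 3 arrays and -0.049, 0.003 and -0.031 on the DMSO arrays at 12 h, again without overlap. Cyclic loess was run on the centred values, so it smoothed along each probe set's mean over the arrays and not along intensity. That mean depends on how a probe set differed between groups, so cyclic loess may also take such differences away. With cyclic loess the median change of the 48 genes at 12 h with IBET858 fell from 0.115 to 0.038. It was 0.094 with the array median taken away. With BDNF it was 0.079 as deposited and 0.073 with cyclic loess. As deposited, the medians over all genes were 0.041 with IBET858 and -0.012 with BDNF at 12 h. Those under the other settings are not given here. Whether the gap to all genes shrank can therefore not be read from these values.

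The first comparison asks what BET inhibition alone does early, with IBET858 set against DMSO at 2 h. Of the 48 genes, 4 were higher and 1 lower, beside 5.64% and 9.27% of all genes, and their median change was 0.041, beside 0.023 over all genes. With cyclic loess the median was -0.003. In the large subunit Rpl12, which sits at the base of the stalk where elongation factors bind, was at -0.65, -0.34 and -0.43 in DMSO and at 0.20, 0.07 and 0.10 in IBET858. The change was 0.59 ± 0.10 (1.51-fold, limma, adjusted p = 0.000135). Rpl41, the smallest ribosomal protein, was at -0.46, -0.39 and -0.27 in DMSO and at 0.07, 0.10 and 0.03 in IBET858, a rise of 0.44 ± 0.05. In the small subunit Rps9, a protein needed for accurate decoding, rose by 0.35 ± 0.06 and Rps27 by 0.29 ± 0.09. Rps27 rested on replicate 1 of DMSO, at -0.60 beside -0.20 and -0.17: without that array its change was 0.16, and it was not called. It was not called either without replicate 2 or replicate 3 of IBET858, when its change was 0.30 and 0.27. Rps25, a protein of the small-subunit head used by some internal entry sites, was the gene that fell. It was at 0.06, 0.06 and -0.02 in DMSO and at -0.18, -0.22 and -0.20 in IBET858, a change of -0.24 ± 0.06 (adjusted p = 0.00525).

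At 12 h, IBET858 against DMSO gave 20 higher and 2 lower of the 48, or 41.7% higher beside 22.9% of all genes and 4.17% lower beside 25.8%. The median change was 0.115, beside 0.041 over all genes, and 11 of 26 large-subunit and 9 of 22 small-subunit genes were higher. With cyclic loess the split was 8 higher and 3 lower, and with the array median taken away 18 and 2. The shares of all genes above do not belong to these settings. Among the genes called the changes were mostly small: 14 of the 20 higher ones lay between 0.11 and 0.29. In the same comparison the 4 markers of excitatory neurons had a median change of -0.52 (1 higher, 2 lower), the 5 of microglia of -0.34 (0 higher, 3 lower) and the 6 of neurons of -0.21 (1 higher, 3 lower). Of the 5 markers of astrocytes 0 were higher and 2 lower (median -0.23), of the 4 of oligodendrocytes 0 and 1 (-0.21), of the 4 of interneurons 0 and 1 (0.04), of the 5 of progenitors 1 and 0 (0.05) and of the 5 of vascular cells and fibroblasts 2 and 0 (0.04). The difference between the 5′ and 3′ Gapdh control probe sets, a sign of RNA quality, was -0.096 on average in IBET858 at 12 h and between -0.026 and 0.016 in the other groups. The same difference for actin was lowest in DMSO at 12 h, at -0.113, with IBET858 at 12 h at -0.063 and the other groups between -0.028 and 0.049. The part of cell makeup and RNA quality in the result was not tested. Without replicate 3 of IBET858 at 12 h, where this difference was -0.219, and replicate 1 of DMSO at 2 h, 19 genes were higher and 2 lower.

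Rpl12 had the highest change at 12 h. Its values were -0.57, -0.37 and -0.61 in DMSO and 0.21, 0.59 and 0.41 in IBET858, and it rose by 0.92 ± 0.10 (1.89-fold, adjusted p = 7.8e-08). Rpl7l1 is a relative of Rpl7 known from the assembly of large subunits rather than from the finished ribosome. It was at -0.12, 0.04 and -0.01 in DMSO and at 0.68, 0.59 and 0.58 in IBET858, a rise of 0.65 ± 0.07 (1.57-fold). Rpl41 rose by 0.42 ± 0.05. In the small subunit Rps10, at the beak near the messenger's entry, was at -0.13, -0.12 and -0.15 in DMSO and at 0.28, 0.24 and 0.26 in IBET858, a rise of 0.39 ± 0.04 (adjusted p = 1.47e-07). Rps6, the target of the S6 kinases, rose by 0.38 ± 0.09 and Rps9 by 0.37 ± 0.06. These 6 were the highest of the called genes without overlap between the groups. That separation came with the choice.

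Other members of known role changed less. Rplp0, the core of the stalk, rose by 0.26 ± 0.04, with values of -0.02, 0.03 and -0.05 in DMSO and 0.19, 0.31 and 0.23 in IBET858, and with cyclic loess its change of 0.13 was no longer called. Its partner Rplp2 was at 0.01 ± 0.05 and was not called. Rpl39, of the peptide exit tunnel, rose by 0.26 ± 0.06 and Rpl7 by 0.19 ± 0.04. With cyclic loess Rpl7 was at 0.09 and was not called, nor was it with the groups compared alone. Rpl39l and Rpl3l, paralogs known from testis and muscle, were at 0.05 ± 0.10 and 0.25 ± 0.11 and were not called, though Rpl3l was called at 0.35 without replicate 2 of IBET858. Rpl11, which also binds Mdm2 in the nucleolar stress response, rose by 0.11 ± 0.04 and Rps19, mutated in Diamond-Blackfan anaemia, by 0.13 ± 0.05, near the smallest change that was called. Rps26 and Rpl10a rose by 0.13 ± 0.04 and 0.15 ± 0.04.

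Both lower genes at 12 h were of the large subunit. Rpl14 was at -0.31, -0.17 and -0.10 in DMSO and at -0.38, -0.57 and -0.67 in IBET858, a change of -0.34 ± 0.07 (0.789-fold, adjusted p = 0.000606). With cyclic loess it was -0.03 and was not called. Rpl22, an RNA-binding protein of the outer surface, changed by -0.20 ± 0.06 as the mean of 3 probe sets, of which 1 alone moved, at -0.72, while the others were at 0.05 and 0.07. Its values in IBET858 were -0.00, -0.09 and -0.33, and without replicate 3 of that group the change was -0.11 and was not called. Its paralog Rpl22l1 was at 0.21 ± 0.10 and was not called. Its direction depended on the setting: with cyclic loess it was called lower, at -0.24 (limma, adjusted p = 0.0492), and without replicate 3 of IBET858 it was called higher, at 0.31 (adjusted p = 0.0238).

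**Figure D2:**
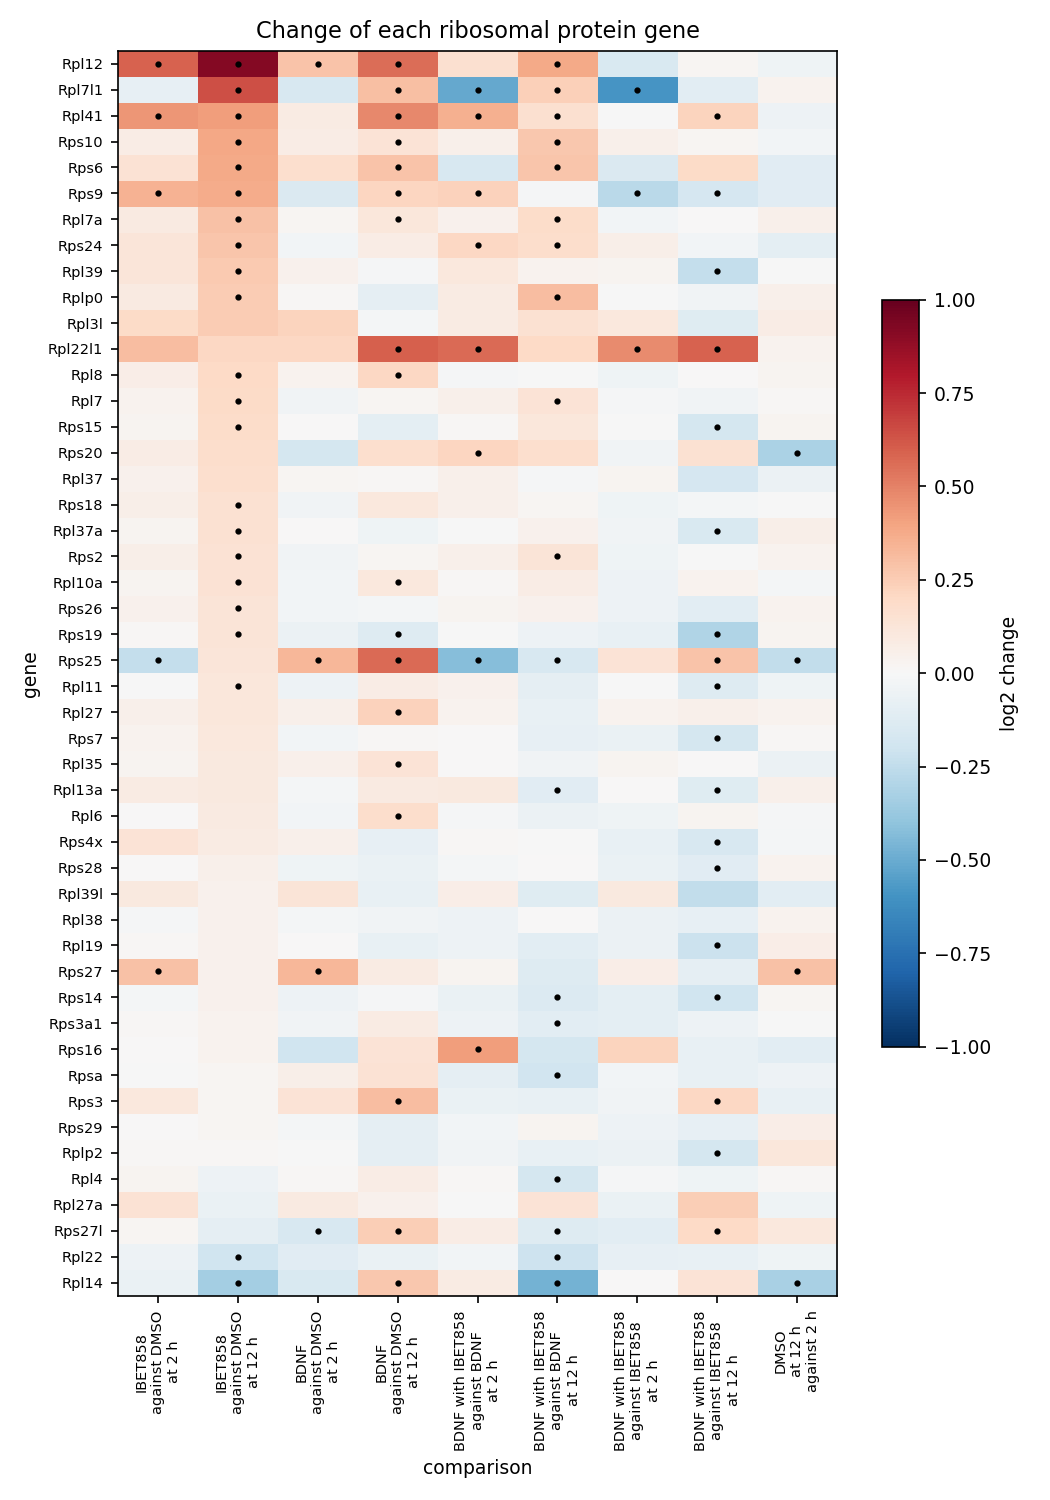
Log2 change (colour) of each of the 48 ribosomal protein genes in the 8 pairwise treatment comparisons and between the DMSO groups, ordered by the change with IBET858 at 12 h; a dot marks a gene called by limma. Red prevails for IBET858 and BDNF against DMSO at 12 h, where 20 and 17 genes were higher, and Rpl12, Rpl41 and Rps25 carry dots in many columns.

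BDNF against DMSO at 2 h tests the early response to the growth factor, and here 3 of the 48 genes were higher and 1 lower, beside 9.79% and 18.1% of all genes. The median change was -0.002, beside -0.004 over all genes. Rps25 was at 0.40, 0.37 and 0.33 in BDNF and rose by 0.33 ± 0.06 (limma, adjusted p = 9.9e-05). Rps27 rose by 0.33 ± 0.09 and Rpl12 by 0.28 ± 0.10. For Rps27 replicate 1 of DMSO again lay apart, at -0.60 beside -0.20 and -0.17. With the groups compared alone neither Rps27 nor Rpl12 was called. Rpl12 was not called without replicate 1 of DMSO, when its change was 0.19. The same held without replicate 2 or replicate 3 of BDNF, at 0.23 and 0.29. Rps27l, the paralog of Rps27 known as a p53 target, was at -0.10, 0.01 and -0.02 in DMSO and at -0.21, -0.16 and -0.21 in BDNF and fell by 0.16 (standard error 0.04). Its change of -0.14 without replicate 2 of DMSO was not called, nor was its change with the groups compared alone. Rps6 was at 0.16 ± 0.09, Rplp0 at 0.01 ± 0.04 and Rpl7l1 at -0.16 ± 0.07, none of them called. Without replicate 1 of DMSO, however, Rpl7l1 was at -0.28 and was called lower (limma, adjusted p = 0.000227). Without replicate 3 of DMSO at 2 h the count was 7 genes, 3 higher and 4 lower.

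At 12 h, BDNF against DMSO gave 17 higher and 1 lower, or 35.4% beside 16.9% of all genes and 2.08% beside 24.2%. The median change was 0.079, beside -0.012 over all genes, and the higher genes were 11 of 26 in the large and 6 of 22 in the small subunit. Cyclic loess left 13 higher and 1 lower. In this comparison 2 of the 4 markers of excitatory neurons were higher and 0 lower (median 0.39), 3 and 3 of the 6 of neurons (-0.002), 2 and 1 of the 4 of interneurons (0.23) and 3 and 1 of the 5 of progenitors (0.23). Of the 5 of astrocytes 0 were higher and 2 lower (-0.31), of the 4 of oligodendrocytes 1 and 1 (-0.25), of the 5 of microglia 0 and 2 (-0.10) and of the 5 of vascular cells and fibroblasts 0 and 0 (-0.06). Their part in the result was not tested. Rpl22l1 was at -0.44, -0.09 and -0.14 in DMSO and at 0.36, 0.40 and 0.38 in BDNF, a rise of 0.60 ± 0.10 (1.51-fold, adjusted p = 7.01e-05). Rps25 was at -0.16, -0.33 and -0.15 in DMSO and at 0.33, 0.34 and 0.39 in BDNF, a rise of 0.56 ± 0.06 (1.48-fold, adjusted p = 5.28e-08). Lack of overlap between the groups was a condition for naming these genes.

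Rpl12 rose by 0.55 ± 0.10 with BDNF at 12 h, with arrays at 0.11, 0.04 and -0.04. Rpl41 rose by 0.48 ± 0.05, from -0.45, -0.44 and -0.37 to 0.11, 0.06 and 0.01. Rps3, a protein of the messenger entry site with a second role in DNA repair, rose by 0.31 ± 0.06 and Rpl7l1 by 0.30 ± 0.07. Rpl14, lower with IBET858, was higher with BDNF at 0.27 ± 0.07, with arrays at 0.07, 0.05 and 0.09. Rps27l was at 0.05, 0.07 and 0.09 in DMSO and at 0.30, 0.37 and 0.28 in BDNF and rose by 0.24 ± 0.04, after the fall at 2 h. Rps6 rose by 0.29 ± 0.09, but without replicate 1 of DMSO at 12 h its change of 0.21 was not called. The gene that fell was Rps19, by 0.13 (standard error 0.05), and with the array median taken away it was no longer called. Its call was also lost without replicate 1 or replicate 2 of DMSO and without any 1 array of BDNF, with changes between -0.14 and -0.10. Rplp0 was at -0.09 ± 0.04, Rplp2 at -0.09 ± 0.05, Rpsa, also known as the laminin receptor, at 0.14 ± 0.06 and Rpl22 at -0.07 ± 0.06, none of them called. Rpsa was called higher with the array median taken away, at 0.16, and without replicate 3 of DMSO, at 0.20.

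**Figure D3:**
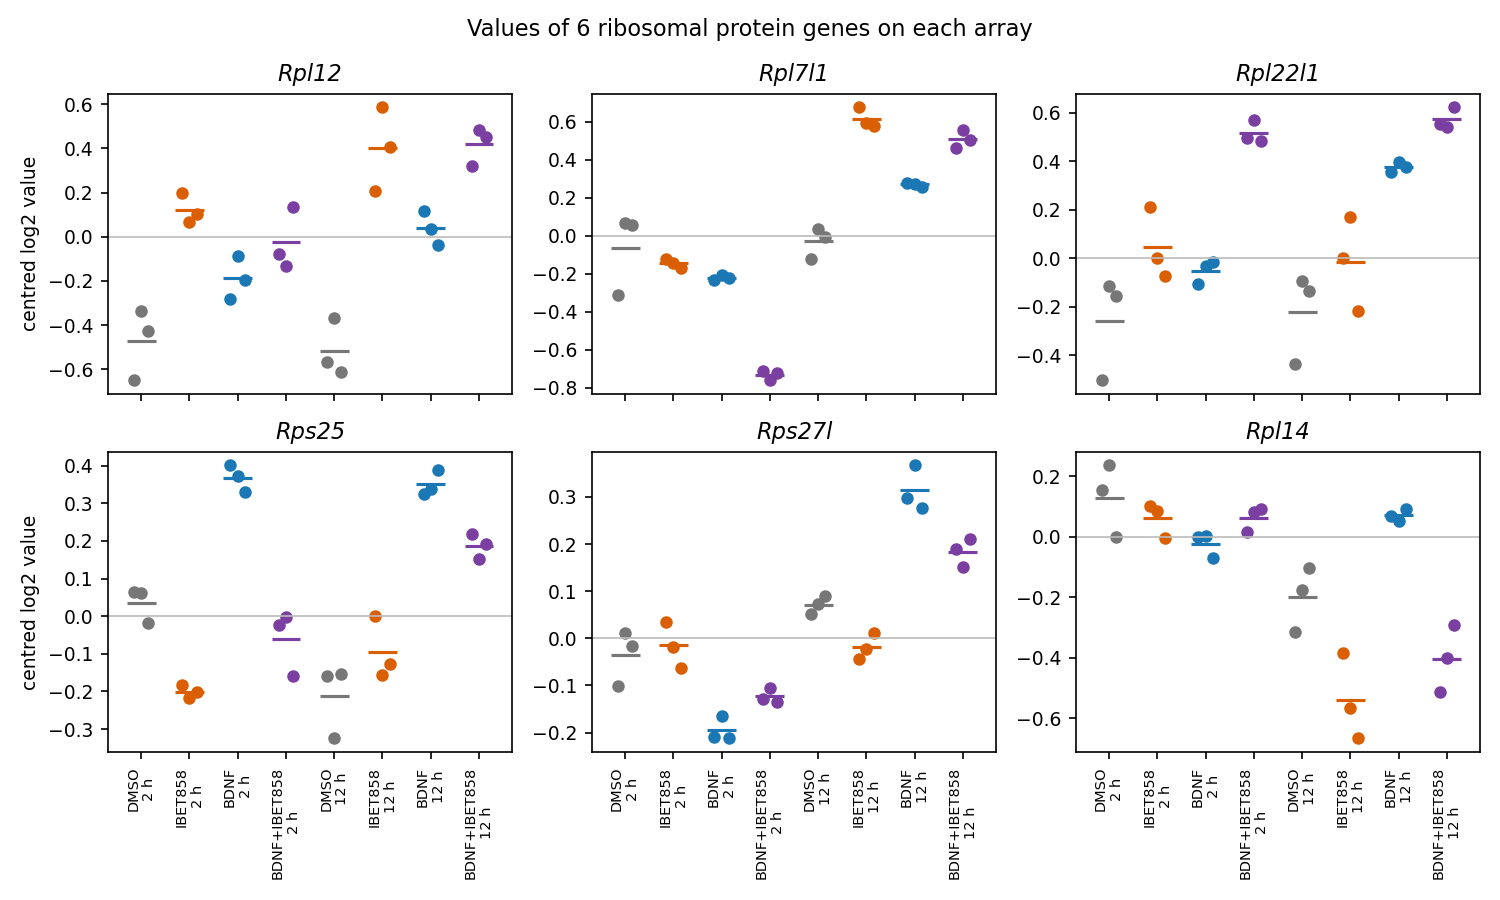
Centred log2 values of Rpl12, Rpl7l1, Rpl22l1, Rps25, Rps27l and Rpl14 on each array (points) in the 8 groups, with the mean of the 3 arrays as a line; the vertical scale differs between panels. Rpl7l1 is lowest in BDNF with IBET858 at 2 h, between -0.76 and -0.71, and the 3 arrays of Rpl14 in IBET858 at 12 h lie between -0.67 and -0.38.

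BDNF with IBET858 was set against BDNF alone to ask what the inhibitor does to neurons under BDNF. At 2 h, 6 genes were higher and 2 lower, beside 12.2% and 14.9% of all genes, with a median of 0.021 beside 0.046. The median turned to -0.009 with the array median taken away and to -0.025 with cyclic loess. Rpl22l1 was at -0.11, -0.03 and -0.02 in BDNF and at 0.50, 0.57 and 0.48 with the inhibitor, a rise of 0.57 ± 0.10 (adjusted p = 0.000211). Rps16, a protein of the small-subunit head, rose by 0.42 ± 0.10, Rpl41 by 0.35 ± 0.05, Rps9 by 0.23 ± 0.06, Rps20 by 0.21 ± 0.08 and Rps24 by 0.20 ± 0.06. Rps20 and Rps24 were not called with cyclic loess. With the median of its probe sets in place of the mean, Rps9 was at 0.03 and Rps24 at 0.13, neither called. The call of Rps20 was lost whichever array of these groups was left out, with changes between 0.20 and 0.24. Rpl7l1 went the other way, from -0.23, -0.21 and -0.23 to -0.71, -0.76 and -0.72, a change of -0.51 ± 0.07 (0.701-fold, adjusted p = 8.67e-06). Rps25 changed by -0.43 ± 0.06, to -0.02, -0.00 and -0.16.

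At 12 h the same comparison gave 10 higher and 9 lower, beside 21.1% and 25.6% of all genes, with a median of -0.002 beside -0.010. With cyclic loess 5 were higher and 9 lower. Rpl12 rose by 0.38 ± 0.10, Rplp0 by 0.31 ± 0.04, Rps6 by 0.28 ± 0.09, Rps10 by 0.27 ± 0.04, Rpl7l1 by 0.24 ± 0.07 and Rpl7a by 0.18 ± 0.04. Rplp0 was at -0.08, -0.09 and -0.13 in BDNF and at 0.19, 0.20 and 0.23 with the inhibitor, so the groups lay apart. With cyclic loess Rps6 and Rpl7l1 were not called and Rpl7a was at -0.002. Rpl14 was at 0.07, 0.05 and 0.09 in BDNF and at -0.51, -0.40 and -0.29 with the inhibitor, a change of -0.47 ± 0.07 (0.72-fold, adjusted p = 1.45e-05). With cyclic loess its change was -0.09 and was not called. Rpl22 changed by -0.21 ± 0.06, Rpsa by -0.19 ± 0.06, Rpl4 by -0.18 ± 0.05, Rps25 by -0.16 ± 0.06 and Rps14 by -0.14 ± 0.04. Without replicate 3 of BDNF, Rpsa at -0.16 and Rps25 at -0.15 were not called, and without replicate 2 of both agents Rps6 at 0.24 and Rps25 at -0.15 were not. Rpl22 rested on 1 of its sets: it was at -0.02 on probe sets without a shared ending and at -0.04 as the median of its sets, and at -0.14 with cyclic loess, called in none of these. Rpl22l1 was at 0.20 ± 0.10 and was not called. It was called lower with cyclic loess, at -0.38 (limma, adjusted p = 0.00261), and higher, at 0.20, with these groups compared alone (adjusted p = 0.00795).

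The same arrays of BDNF with IBET858 were also set against IBET858 alone, which shows the BDNF response under the inhibitor. At 2 h, 1 gene was higher and 2 were lower, beside 6.44% and 14.7% of all genes, with a median of -0.036 beside -0.004. The split was 1 and 4 with cyclic loess. Rpl22l1 rose by 0.47 ± 0.10, Rpl7l1 changed by -0.59 ± 0.07 from -0.12, -0.14 and -0.17 in IBET858, and Rps9 by -0.27 ± 0.06. As the median of its probe sets Rps9 was at -0.18 and was not called. At 12 h, 5 were higher and 13 lower, beside 16.1% and 23.2%, with a median of -0.061 beside -0.065 over all genes. The direction of this split depended on the setting: 5 higher and 6 lower with the array median taken away, and 7 higher and 4 lower with cyclic loess. Rpl22l1 was at 0.00, 0.17 and -0.22 in IBET858 and at 0.55, 0.54 and 0.62 with BDNF added, a rise of 0.59 ± 0.10. Rps25 rose by 0.28 ± 0.06, Rpl41 by 0.22 ± 0.05, Rps3 by 0.21 ± 0.06 and Rps27l by 0.20 ± 0.04. Rps3 was at 0.14 and not called without replicate 2 of IBET858. Rps19 was at 0.11, 0.18 and 0.23 in IBET858 and at -0.12, -0.12 and -0.14 with BDNF added, a change of -0.30 ± 0.05 (adjusted p = 2.5e-05). Rpl39 changed by -0.24 ± 0.06, Rpl19 by -0.22 ± 0.04, Rps14 by -0.20 ± 0.04, Rplp2 by -0.18 ± 0.05 and Rps15 by -0.17 ± 0.04. With cyclic loess Rplp2 at -0.13 and Rps15 at -0.12 were not called.

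An interaction term asks whether both agents together changed a gene by other than the sum of their separate changes. It shares the DMSO and single-agent arrays with the comparisons above. At 2 h, 0 genes were above and 1 below the sum, beside 3.11% and 5.29% of all genes. The median was -0.021, beside 0.018 over all genes. The gene was Rpl7l1, at -0.43 ± 0.10 (adjusted p = 0.00875): its value in BDNF with IBET858 lay under those of all other groups. At 12 h, 0 were above and 9 below, or 18.8% below beside 7.24% of all genes, and 8.94% of all genes were above. The median was -0.126, beside -0.031 over all genes, and 45 of the 48 values were under 0. With a median under 0, more of all genes also lay under 0 than over it, and their share is not given here. The 48 values come from the same arrays and are not separate evidence. Cyclic loess left a median of -0.076 beside 0.004, with 0 above and 3 below, and the array median taken away left 0 and 5. The count was 5 without replicate 1 or without replicate 2 of BDNF at 12 h, and 4 without replicate 2 of BDNF with IBET858 at 12 h.

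The largest interactions at 12 h among the called genes were those of Rpl12 at -0.54 ± 0.14, Rpl7l1 at -0.41 ± 0.10, Rps9 at -0.39 ± 0.08, Rps25 at -0.28 ± 0.08, Rpl41 at -0.26 ± 0.07 and Rpl13a at -0.21 ± 0.06. With cyclic loess Rps25 at -0.24, Rpl41 at -0.19 and Rpl13a at -0.16 were not called, and single arrays decided the same 3 calls. Rps25 was not called without replicate 2 of DMSO, at -0.23, nor Rpl41 without replicate 1 of BDNF or replicate 2 of both agents, at -0.24 each. Rpl13a lost its call without replicate 1 of DMSO, replicate 3 of IBET858, or replicate 1 or 2 of BDNF or of both agents, with values between -0.21 and -0.18. For Rpl12 the 3 arrays with both agents, at 0.32, 0.48 and 0.45, lay within the range of IBET858 alone, 0.21 to 0.59. For Rpl7l1 they were at 0.46, 0.55 and 0.50, between BDNF alone, at 0.28, 0.27 and 0.26, and IBET858 alone, at 0.68, 0.59 and 0.58. Rps9 was at -0.02, -0.01 and 0.03 with both, at 0.16, 0.21 and 0.14 with IBET858 and at 0.05, 0.02 and -0.02 with BDNF. Each agent alone was called higher at 12 h for these 3 genes. Against IBET858 alone both agents gave 0.02 ± 0.10 for Rpl12 and -0.11 ± 0.07 for Rpl7l1, neither called, and -0.17 ± 0.06 for Rps9, which was called lower.

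Taken with its sign, the IBET858 effect was called higher at 12 h than at 2 h for 6 genes and lower for 0. The shares of all genes were 15.8% and 17.4%, and the median was 0.065 beside 0.008. With cyclic loess the split was 3 and 1, and without replicate 1 of IBET858 at 12 h it was 9 and 3. Rpl7l1 differed most, by 0.73 ± 0.10 (adjusted p = 9.27e-06), since its change with IBET858 was -0.08 ± 0.07 at 2 h and 0.65 ± 0.07 at 12 h. Without replicate 1 of DMSO at 2 h its change at that time was -0.21 and was called lower (limma, adjusted p = 0.00705). Rps25 differed by 0.35 ± 0.08, Rps10 by 0.32 ± 0.06, Rpl7a by 0.20 ± 0.06, and Rplp0 and Rpl7 by 0.16 ± 0.06 each. Rps25 had fallen with IBET858 at 2 h. At 12 h it was not called, with means of -0.09 in IBET858 and -0.21 in DMSO. At 2 h these means were -0.20 and 0.04, so DMSO moved more between the times. With cyclic loess Rps25 was at 0.23, Rpl7a at 0.04, Rplp0 at 0.08 and Rpl7 at 0.11, none of them called. Rps10 was at 0.31 on probe sets without a shared ending and was not called. With 1 array left out, Rplp0 kept its call only without replicate 1 of DMSO at 2 h, replicate 2 of DMSO at 12 h, or replicate 1 or 3 of IBET858 at 12 h, and lost it without any other array, at 0.13 to 0.17. Rpl7 kept it only without replicate 3 of DMSO or replicate 1 of IBET858 at 2 h, or replicate 1 of DMSO or replicate 3 of IBET858 at 12 h, and lost it otherwise, at 0.13 to 0.16. Rps10 was not called at 2 h, at 0.07 ± 0.04. Rpl12 and Rpl41 were higher at both times, and the difference between the times was not called for either.

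With its sign, the BDNF effect was higher at 12 h for 8 genes and lower for 0, beside 12.9% and 11.9% of all genes. The median was 0.076, beside -0.016. Rpl7l1 differed by 0.46 ± 0.10, Rpl14 by 0.42 ± 0.11, Rps27l by 0.40 ± 0.06, Rpl41 by 0.40 ± 0.07, Rps9 by 0.37 ± 0.08 and Rps20 by 0.34 ± 0.11. As the median of its probe sets Rps9 was at 0.16 and was not called. Rps20 was not called without replicate 1 or 2 of DMSO at 2 h, replicate 1 or 3 of BDNF at 2 h, or replicate 2 of BDNF at 12 h, with values between 0.30 and 0.33. Rps27l had fallen at 2 h and risen at 12 h. Rps25 differed by 0.23 ± 0.08 and Rpl6 by 0.21 ± 0.05. For Rps25, Rps20 and Rpl14 the DMSO mean moved more between 2 h and 12 h than the BDNF mean. Rps25 went from 0.04 to -0.21 in DMSO and from 0.37 to 0.35 in BDNF. Rps20 went from 0.09 to -0.22 and from -0.08 to -0.06, and Rpl14 from 0.13 to -0.20 and from -0.02 to 0.07. For Rpl7l1, Rps27l, Rpl41, Rps9 and Rpl6 the BDNF mean moved more. In DMSO alone, 12 h against 2 h gave 1 higher and 3 lower, beside 3.91% and 3.63% of all genes, with a median of 0.002 beside -0.004. Rpl14 was at 0.15, 0.24 and -0.00 at 2 h and lower at 12 h by 0.33 (change -0.33 ± 0.07). Rps20 changed by -0.32 ± 0.08 and Rps25 by -0.25 ± 0.06, while Rps27 rose by 0.30 ± 0.09. Rps27 was not called without replicate 1 of DMSO at 2 h, when its change was 0.16. It was not called without any 1 of the arrays at 12 h either, at 0.28 to 0.31. Rpl14 was at -0.27 and not called without replicate 2 at 2 h or replicate 1 at 12 h, and Rps25 at -0.19 and not called without replicate 2 at 12 h.

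Across the 8 pairwise treatment comparisons, 6 genes were never called: Rpl27a, Rpl37, Rpl38, Rpl39l, Rpl3l and Rps29. Another 15 were called in 1 comparison and 14 in 2. Rpl41, Rps25 and Rps9 were called in 6 of 8: Rpl41 was higher each time, Rps25 higher in 3 and lower in 3, and Rps9 higher in 4 and lower in 2. Rpl12 and Rpl7l1 were called in 5, Rpl12 always higher. In how many of these comparisons genes outside the set were called is not given here. The counts therefore do not show whether ribosomal protein genes were called more or less often than all genes. A correlation of each gene with the median of the other 47 over the 24 arrays, which share the array scaling, ran from -0.58 for Rpl14 to 0.81 for Rps26. Rpl22 was at -0.54, Rpl27a at -0.32, Rps25 at -0.22 and Rpl12 at 0.76.

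Several members did not give the same answer on all their probe sets. Of the 48 genes, 24 had 1 probe set and 24 had from 2 to 6. Probe set names ending in a_at, s_at or x_at mark sequences shared with other transcripts, here called a shared ending, and 71 of the 104 had one. For the 28 ending in a_at these are other transcripts of the same gene. The 3 ending in s_at and the 40 ending in x_at may read ribosomal pseudogenes and paralogs. For genes measured through these s_at and x_at sets the source of the signal is uncertain. With IBET858 at 12 h the 33 sets without a shared ending had a median change of 0.190, with 14 higher and 2 lower. The 40 ending in x_at had a median of 0.115, with 12 higher and 0 lower. These calls come from a fit over the probe sets naming 1 gene. In another fit, over 45037 probe sets of any ending, 20.8% were higher and 20.6% lower in this comparison. Shares of all probe sets by ending are not given here. Of 11 genes with several probe sets that were called there, all sets were called in 5. With BDNF at 12 h it was 1 of 9.

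Rpl41 shows the disagreement best. At 12 h with IBET858 its probe sets 1433530_at and 1454639_x_at rose by 0.80 and 0.75, and 1422623_x_at and 1455578_x_at were at 0.05 and 0.08. With BDNF they were at 0.94, 0.82, 0.12 and 0.05 in the same order, so 2 of 4 sets carried the change in both comparisons. Rps9 rose with IBET858 at 2 h by 0.84 on 1426958_at, while its other 2 sets were at 0.01 and 0.20. The 2 sets of Rps6 exchanged places: 1416142_at and 1453466_at were at 0.30 and 0.46 with IBET858 at 12 h, at 0.60 and -0.03 with BDNF, and at -0.08 and 0.64 for both agents against BDNF. Rps3 had 1455600_at at -0.26 with IBET858 and at 0.65 with BDNF at 12 h, with 1435151_a_at at 0.06 and 0.09. For Rpl13a, BDNF at 12 h gave opposite calls, -0.13 on 1417608_a_at and 0.35 on 1433928_a_at.

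In some comparisons all sets of a gene were called. All 6 sets of Rps10 were higher with IBET858 at 12 h, by 0.24 to 0.70, as were the 3 of Rpl7l1, by 0.56 to 0.76. The 3 sets of Rps27l fell with BDNF at 2 h, by -0.15, -0.15 and -0.17, and rose at 12 h, by 0.22, 0.27 and 0.24. The same genes were less even elsewhere: the sets of Rps10 ran from -0.06 to 0.65 with BDNF at 2 h and from -0.04 to 0.64 at 12 h, with 1 of 6 called each time. For the interaction at 2 h, called for Rpl7l1 alone, 1 of its 3 sets was called. Rpl12, Rpl14, Rps25 and Rpl22l1 have 1 set each, so no such check exists for them, and that of Rpl22l1 ends in a_at.

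**Figure D4:**
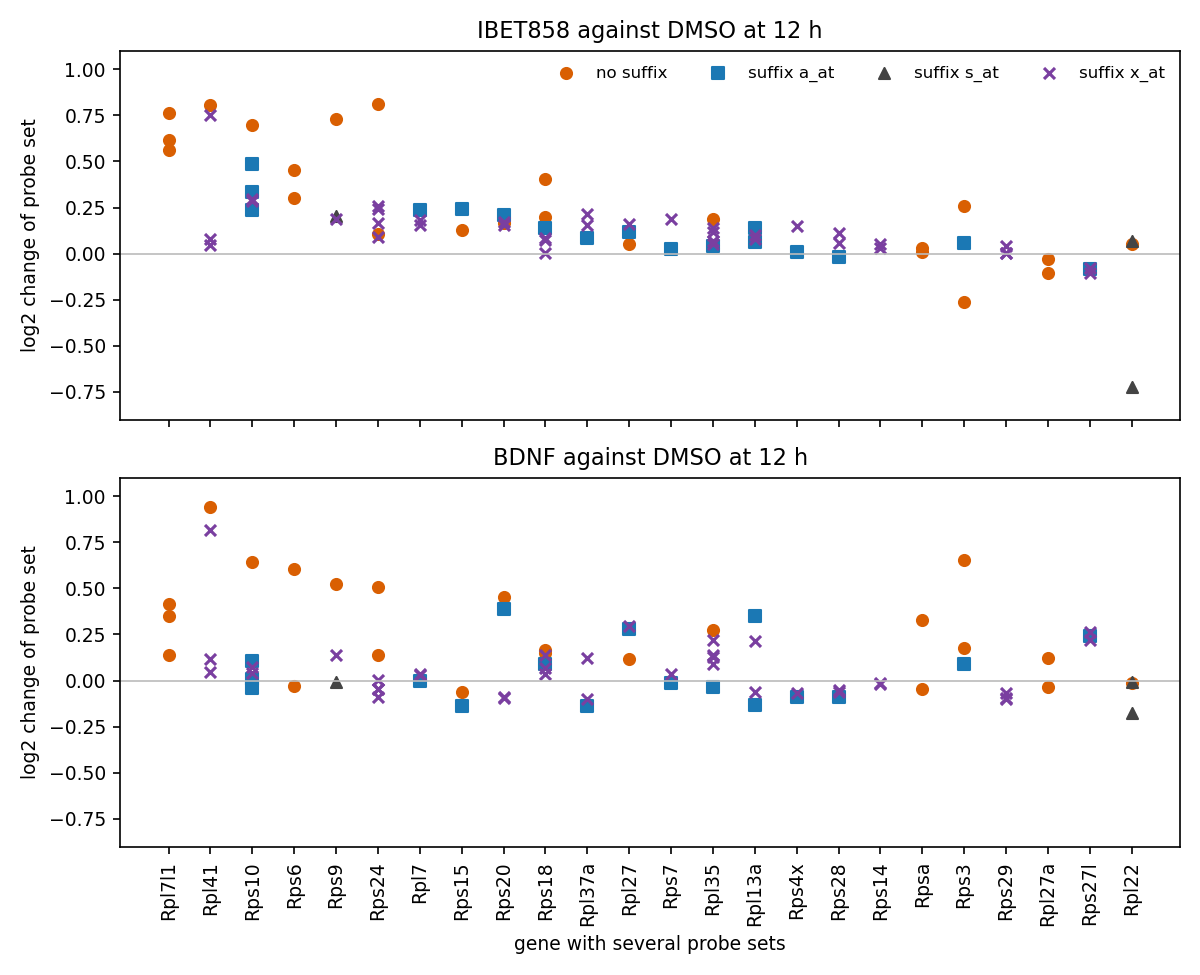
Log2 change of every probe set of the 24 ribosomal protein genes with several probe sets, with IBET858 (top) and BDNF (bottom) against DMSO at 12 h; the symbol gives the ending of the probe set's name. The 3 sets of Rpl7l1 lie between 0.56 and 0.76 with IBET858, while those of Rpl41 split into 2 near 0.8 and 2 near 0.1, and 1 set of Rpl22 lies alone at -0.72.

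Genes for ribosome assembly had larger changes with BDNF than the genes for ribosomal proteins. Of 60 ribosome biogenesis genes, 59 were higher and 1 lower with BDNF at 12 h (98.3% and 1.67%, beside 16.9% and 24.2% of all genes), with a median of 0.56 beside 0.079 for the 48. The nucleolar helicase Ddx21 rose by 1.51 ± 0.06, the small-subunit assembly factor Ltv1 by 1.17 ± 0.06 and Utp20, of the small-subunit processome, by 1.13 ± 0.06. At 2 h the count with BDNF was 13 higher and 8 lower (21.7% and 13.3%, beside 9.79% and 18.1%). With IBET858 at 12 h it was 17 higher and 16 lower, with a median of 0.001, and these shares of 28.3% and 26.7% lay near the 22.9% and 25.8% of all genes. There Ltv1 changed by -1.42 ± 0.06 and Utp20 by -0.86 ± 0.06, and Nop56, a core protein of small nucleolar ribonucleoproteins, rose by 0.93 ± 0.08. BDNF with IBET858 against BDNF at 12 h gave 9 higher and 32 lower (15% and 53.3%, beside 21.1% and 25.6%, median -0.20). Against IBET858 it gave 48 higher and 2 lower (80% and 3.33%, beside 16.1% and 23.2%, median 0.37). RNA polymerase I, which transcribes ribosomal RNA, had 8 of 15 genes higher and 1 lower with BDNF at 12 h (53.3% and 6.67%), and 8 higher and 4 lower with IBET858 (53.3% and 26.7%, the latter near that of all genes).

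The 76 measured genes for mitochondrial ribosomal proteins, which serve a separate ribosome, had more members lower than higher in these comparisons. With IBET858 at 12 h 16 were higher and 41 lower (21.1% and 53.9%, beside 22.9% and 25.8% of all genes, median -0.18). With BDNF the count was 2 and 35 at 2 h (2.63% and 46.1%, beside 9.79% and 18.1%, median -0.14) and 16 and 28 at 12 h (21.1% and 36.8%, beside 16.9% and 24.2%, median -0.06). Both agents against BDNF gave 4 and 11 at 2 h, with 14.5% lower beside 14.9% of all genes and a median of 0.005, and 13 and 48 at 12 h (17.1% and 63.2%, beside 21.1% and 25.6%, median -0.27). Mrpl36 changed by -1.07 ± 0.06 with IBET858 at 12 h and Mrpl49 by 0.92 ± 0.05 the other way. Lists of this kind and the 48 genes were compared only by these counts and medians. All were chosen with earlier results of these data known.

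**Figure D5:**
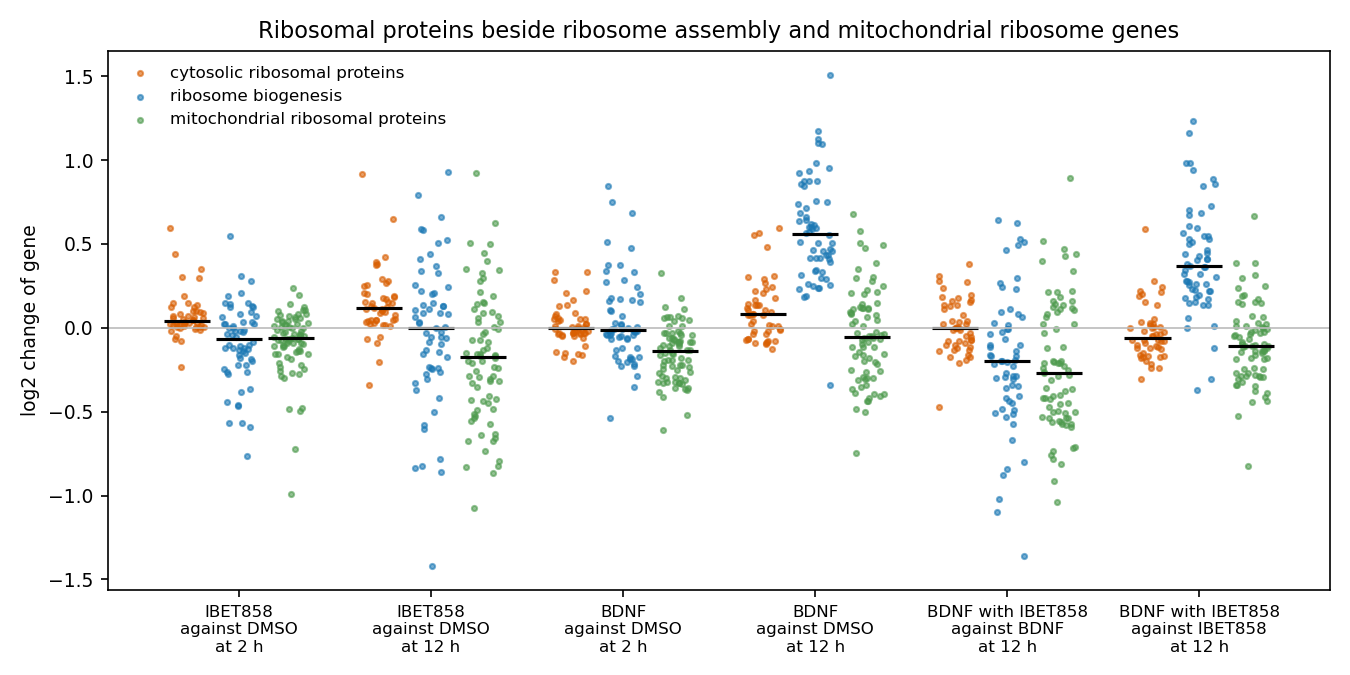
Log2 change of each gene (points) and the median (black line) for 48 cytosolic ribosomal protein genes, 60 ribosome biogenesis genes and 76 mitochondrial ribosomal protein genes in 6 comparisons. With BDNF at 12 h the medians are 0.079, 0.56 and -0.06.

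Other genes tied to translation were counted in the same way, to be read beside 16.9% higher and 24.2% lower of all genes with BDNF at 12 h and 22.9% and 25.8% with IBET858. Translation initiation factors had 18 of 26 higher and 2 lower with BDNF at 12 h (69.2% and 7.69%, median 0.29), among them Eif4ebp1, the inhibitor of cap binding that mTOR inactivates, at 0.77 ± 0.06. With IBET858 at 12 h 12 were higher and 4 lower (46.2% and 15.4%), and Eif4ebp1 changed by -1.45 ± 0.06. Elongation factors and other TOP messengers, which share the pyrimidine start with ribosomal proteins, had 8 of 19 higher and 2 lower with BDNF at 12 h (42.1% and 10.5%) and 6 higher and 3 lower with IBET858 (31.6% and 15.8%). Fau, which makes a small-subunit protein fused to a ubiquitin-like domain and lies outside the naming rule, was at 0.15 with IBET858 at 12 h and was called higher.

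Host transcripts of small nucleolar RNAs, many with TOP starts, had 10 of 14 higher and 1 lower with IBET858 at 12 h (71.4% and 7.14%, median 0.40) and 7 higher and 0 lower at 2 h (50% higher beside 5.64% of all genes, median 0.32). Snhg3 and Snhg8 rose by 1.23 ± 0.09 and 1.23 ± 0.11 at 12 h. With BDNF at 12 h 8 were higher and 0 lower (57.1% higher, median 0.33). In the mTOR and S6 kinase pathway 9 of 21 were higher and 6 lower with IBET858 at 12 h (42.9% and 28.6%), and 6 and 9 with BDNF (28.6% and 42.9%). Sesn3, a stress-induced brake on mTOR, rose by 1.56 ± 0.07 with IBET858, and Sesn1 changed by -0.90 ± 0.09 with BDNF, both at 12 h.

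The pattern of the median of the 48 genes over the 24 arrays was most like that of Mmp17 (Pearson r = 0.92), Polr1c, a subunit of RNA polymerases I and III (0.88), Fam90a1b (0.87), Mrps26 (0.86) and Adgrf4 (0.85). These are the 5 highest of the genes outside the set. The arrays share their scaling, and the values are a description only.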

How the data were processed

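RNA of 8 groups of cultured neurons was measured on 24 Affymetrix mouse arrays. The authors deposited log2 values made with RMA, per the submitters' processing notes, and each of the 45101 probe sets had a median of 0 over the 24 arrays (tolerance 1e-06), so it had been centred. Scanner files and detection calls were not used here. In the platform annotation 34958 probe sets had 1 symbol and 932 had several, and it did not list 9211. By Entrez ID, 34754 matched RefSeq (GRCm38.p6) and 204 did not. A gene is the mean of the probe sets naming it alone. All groups were fitted in limma 3.58.1 (R 4.3.3), with 16 residual degrees of freedom, 13 contrasts, two-sided tests and Benjamini-Hochberg adjustment over 18194 genes. Tested on simulated data for IBET858 against DMSO at 12 h (18194 genes), it called 28% of changes of 0.25, 74% of 0.5 and 100% of 1 and 2 on the log2 scale. Only 50 genes were changed at each size, while 22.9% and 25.8% of all genes were called higher and lower in the real comparison. The adjusted threshold depends on that share, so these rates need not hold there. For arrays, their number limits the precision.

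Named are, in each contrast, up to 6 highest and 6 lowest called members (without overlap between arrays where pairwise), the stalk proteins, Rpsa, Rps6 and paralog pairs, up to 3 genes of other lists and the 5 genes most like the median. Genes outside this rule, among them the 6 never called and the members named for their probe sets or correlations, were chosen after their values were seen. The members and lists were chosen with earlier results of these data known. Alternatives were the array median subtracted, cyclic loess, probe sets without a shared ending, the 25% least variable genes removed, groups compared alone, a replicate block, arrays left out and, added after seeing the data, the median of the probe sets.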

Additional observations from a re-analysis of the deposited data

Results flagged for a closer look

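Each value here is a difference between effects that passed limma's test of that difference, with an adjusted p under 0.05. The interaction at 2 h passed for Rpl7l1 at -0.43. At 12 h it passed for Rpl12 at -0.54, Rpl7l1 at -0.41, Rps9 at -0.39, Rps25 at -0.28, Rpl41 at -0.26, Rpl13a at -0.21, Rpl11 at -0.20, Rpl8 at -0.20 and Rps14 at -0.18. Taken with its sign, the IBET858 effect was higher at 12 h than at 2 h for Rpl7l1 by 0.73, Rps25 by 0.35, Rps10 by 0.32, Rpl7a by 0.20, Rplp0 by 0.16 and Rpl7 by 0.16. For Rps25 this followed a fall at 2 h, and its change at 12 h was not called. With its sign, the BDNF effect was higher at 12 h for Rpl7l1 by 0.46, Rpl14 by 0.42, Rpl41 by 0.40, Rps27l by 0.40, Rps9 by 0.37, Rps20 by 0.34, Rps25 by 0.23 and Rpl6 by 0.21. For Rpl14, Rps20 and Rps25 the DMSO mean fell between the times by more than the BDNF mean moved. Rpl7l1 and Rps25 are in all 3 of the sets at 12 h.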

How the results depend on the processing

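The arrays, their number and the scaling limit what small shifts can show. Medians below are of the log2 changes of the measured members, and counts are of members called. Neither is set beside all genes under the same setting here. They do not show whether the members moved apart from all genes. Subtracting the array median gave medians of 0.020 (IBET858 at 2 h), 0.094 (IBET858 at 12 h), 0.098 (BDNF at 12 h), -0.0090 (both against BDNF at 2 h), -0.021 (both against IBET858 at 12 h) and -0.105 (interaction at 12 h), with counts of 11 and 5 for the last 2. Cyclic loess gave medians of -0.0034 and 0.038 (IBET858 at 2 h and 12 h), -0.027 (BDNF at 2 h), -0.025 (both against BDNF at 2 h), -0.063 and -0.012 (both against IBET858 at 2 h and 12 h), -0.039 and -0.076 (interaction at 2 h and 12 h) and 0.034 (IBET858 effect, 12 h minus 2 h), and counts of 11 (IBET858 at 12 h), 5 and 11 (both against IBET858 at 2 h and 12 h) and 3 (interaction at 12 h).

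Probe sets without a shared ending left 25 members, with medians of 0.120 and 0.166 (IBET858 at 2 h and 12 h), 0.059 and 0.156 (BDNF), 0.034 (both against BDNF at 12 h), -0.015 and -0.034 (both against IBET858), -0.112 and -0.159 (interaction) and -0.046 (DMSO), and counts of 12, 10, 8, 5 and 2 for IBET858, both against BDNF, both against IBET858, interaction (12 h each) and the IBET858 effect between times. Without the 25% least variable genes 18 members were left, with medians of 0.094 and 0.229 (IBET858), 0.055 and 0.214 (BDNF), 0.075 and 0.155 (both against BDNF), -0.014 and 0.020 (both against IBET858), -0.064 (interaction at 2 h), 0.081 and 0.252 (IBET858 and BDNF effects between times) and -0.047 (DMSO), and counts of 11, 10 and 5 at 12 h for IBET858, both against BDNF and both against IBET858, and 2 for the interaction at 2 h. Fewer members are counted under these settings.

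Groups compared alone gave 11 (IBET858 at 12 h), 1 (BDNF at 2 h), 7 (both against IBET858 at 12 h), 4 (interaction at 12 h), 3 (IBET858 effect between times) and 0 (DMSO, where limma at an unadjusted p under 0.05 gave 1 higher and 3 lower). The median of the probe sets moved BDNF at 2 h to -0.019. Without both arrays that stood apart the counts were 7 (BDNF at 2 h), 6 (both against IBET858 at 2 h) and 3 (interaction at 2 h). The cause of these changes was not tested.

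Leaving out 1 array at a time gave 3 to 7 calls for BDNF at 2 h, 1 to 2 for the interaction at 2 h (median -0.040 to -0.016), 4 to 12 for the interaction at 12 h, 4 to 12 for the IBET858 effect between times (median 0.050 to 0.091) and 2 to 4 for DMSO. The median ran from 0.101 to 0.146 for IBET858 and from 0.064 to 0.095 for BDNF at 12 h. Of 3317 values of named members under alternatives, 3143 kept their side of the threshold, 127 were no longer called and 42 became called. The 3143 include values called in neither the main fit nor the alternative, whose direction was not compared. Of those called in either, 5 turned: Rpl22l1 with cyclic loess at -0.24 (IBET858 at 12 h) and -0.38 (both against BDNF at 12 h), Rpl7a there at -0.0024, and Rpl22 with IBET858 at 12 h at 0.051 without shared endings and 0.016 as the median of its probe sets. The replicate numbers were not taken to pair the arrays, since 10 of 84 same-numbered pairs had residuals correlated over 0.1 (range -0.20 to 0.509, median 0.003), beside 17 of 168 other pairs (highest 0.339). With the replicate block the interaction at 2 h had 2 calls, and no other count moved by over 1.5 times.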

Other observations

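The 110 probe sets that named a ribosomal protein gene together with other genes, and that belong to no member, were tested as probe sets beside all 45037. With IBET858 against DMSO at 12 h 28 were higher and 0 lower, beside 20.8% and 20.6% of all probe sets. The median of the 110 was 0.081. With BDNF at 12 h 19 were higher and 5 lower, beside 15% and 18.4% of all probe sets. BDNF with IBET858 against IBET858 at 12 h gave 4 higher and 30 lower, beside 15% and 17.8% of all. The median of the 110 there was -0.091. The interaction at 12 h had 1 above and 7 below, beside 6.44% and 4.92% of all probe sets, with a median of -0.126 for the 110. Their genes are not named, since such a probe set cannot be given to 1 of them.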
